A study of Mus musculus with 17 samples.

Results

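Macrophages grown from mouse bone marrow were assayed by RNA polymerase II ChIP-seq, and the results here concern the sites of the polymerase that lay between genes. Peak summits of 16 libraries were pooled, and summits at most 500 bp apart were chained into 1 region. A region was counted as intergenic when its midpoint lay more than 5 kb from the span of every annotated protein-coding gene and when at least 2 libraries held a summit in it. By this rule 3677 of 31969 regions were intergenic. A further 2397 regions flanked genes at 1 to 5 kb, 10616 lay within 1 kb of a gene end and 15279 lay inside genes.

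Libraries came from N4bp1 knockout (KO) and wild-type (WT) macrophages. Each genotype had received R837 for 2, 4 or 6 h or was untreated, which gave 8 groups of 2 libraries. R837 (imiquimod) activates TLR7, a sensor of RNA in endosomes, and N4BP1 is a protein known to restrain inflammatory cytokines and to be cleaved by caspase-8. The labels do not give the N4bp1 allele, the strain or age of the animals, or whether replicates came from separate animals or cultures, so a p-value reflects only how far these libraries spread, and that spread may be technical.

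Polymerase between genes has several known sources. Active enhancers recruit the enzyme and are transcribed into short, unstable enhancer RNAs, and in macrophages many enhancers are opened by PU.1 and C/EBP factors and then bound by NF-kB, AP-1 or interferon-activated factors after a Toll-like receptor is engaged. Long non-coding RNAs and primary microRNA transcripts are made by the same enzyme and also lie outside protein-coding genes. The name enhancer is therefore only a working label here, since no histone mark or RNA was measured.

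Each region was scored by its place in the list of a library. Regions were ranked by the authors' deposited score of their best summit, the best 5595 regions of each library were kept, and the rank score was log2 of (5595 + 1) divided by the rank, or 0 for a region below that place. The top region has a rank score of 12.45, and a difference of 1 is a change of the rank number by a factor of 2. A rank score is a place in a list and not an amount of polymerase, and fewer cells with polymerase at a site cannot be told apart from less polymerase per cell.

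The lists held 8394 to 29760 summits, and read depth is unknown because the lists hold no read counts. Between 289 and 2155 intergenic regions were listed per library. Codes in the deposited peak names are consecutive, and so run in 1 series, for the untreated and 2 h libraries and in separate ones for 4 h and for 6 h, so a difference between series cannot be told apart from time in the 4 h and 6 h comparisons. Replicate 2 of KO at 6 h stood apart, with a highest deposited score of 563.5 against at most 320.4 in every other library. All 8 macrophage markers examined, among them Adgre1, Csf1r and Spi1, had a rank score in some library and 5 had one in every library. Fcgr1 had one in 14 libraries, Itgam in 11 and Mertk in only 2, where it was at most 0.973. Of 30 markers of other cell types, only Cd79a, S100a8, Flt3 and Pdgfrb had a rank score anywhere, and their summed score was at most 0.937 in an R837-treated library and at most 0.970 in an untreated one. The N4bp1 gene itself scored 1.75 to 3.42 in the 6 treated KO libraries and 0.817 to 2.60 in the 6 treated WT libraries, and was at 0 in all 4 untreated libraries. Which part of the gene the KO lacks is not stated in the labels, so polymerase there does not check the genotype labels.

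Several of the intergenic regions described further on lay next to microRNA hairpins or at the start of long non-coding RNA genes, and their sequences are given first to identify them. The microRNAs are some of those with a region within 15 kb of their hairpin that is described with its values. Others with such a region are not shown, among them Mir23a, Mir3089, Mir760 and Mir223 beside regions that fell. Mature sequences are from RefSeq on the GRCm38.p6 assembly, are written 5′ to 3′, and have the seed (bases 2 to 8, the part that pairs with target mRNAs) in capitals.
mmu-miR-146a-5p: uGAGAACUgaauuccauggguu
mmu-miR-221-3p: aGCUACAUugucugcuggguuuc
mmu-miR-222-3p: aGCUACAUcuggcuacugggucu
mmu-let-7i-5p: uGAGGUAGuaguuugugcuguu
mmu-miR-155-5p: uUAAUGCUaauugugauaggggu
mmu-miR-29a-3p: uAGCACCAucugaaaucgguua
mmu-miR-29b-3p: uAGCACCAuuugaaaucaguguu
miR-221-3p and miR-222-3p share the seed GCUACAU and come from 1 cluster on chromosome X, and miR-29a-3p and miR-29b-3p share AGCACCA and come from 1 cluster on chromosome 6. miR-146a targets adaptors of Toll-like receptor signalling, and miR-155 is a well-known inflammation-induced microRNA of macrophages.

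RefSeq promoter windows (250 bases before to 50 after a gene's start, GRCm38.p6) of 3 long non-coding RNA genes are shown as examples. Summits of regions that passed the test after R837 fell inside these windows and inside others that are not shown. Capitals mark a match to the AP-1 motif TGANTCA, the only one of 5 motifs searched that these windows held. Among windows not shown, those of Gm40085, Gm35413, A930006K02Rik and 4930469K13Rik, whose regions rose, held no AP-1 match. Those of D730003I15Rik and 5033421B08Rik, whose regions fell, held 1 each, and those of Oip5os1 and AU020206, whose regions also fell, held none. The Gm40645 window lies at chr10:51526214-51526513 on the minus strand and held summits of 6 libraries. The Gm36199 window lies at chr17:29434568-29434867 on the plus strand and held summits of 7 libraries. The Malat1 window lies at chr19:5802623-5802922 on the minus strand, held summits of 9 libraries and had no match to any of the 5 motifs.
Gm40645: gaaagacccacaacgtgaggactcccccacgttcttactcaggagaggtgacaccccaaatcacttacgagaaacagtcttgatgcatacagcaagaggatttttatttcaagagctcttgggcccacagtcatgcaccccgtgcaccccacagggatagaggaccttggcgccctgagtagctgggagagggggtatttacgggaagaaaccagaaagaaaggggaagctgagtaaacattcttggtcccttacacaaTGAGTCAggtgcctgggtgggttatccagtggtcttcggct
Gm36199: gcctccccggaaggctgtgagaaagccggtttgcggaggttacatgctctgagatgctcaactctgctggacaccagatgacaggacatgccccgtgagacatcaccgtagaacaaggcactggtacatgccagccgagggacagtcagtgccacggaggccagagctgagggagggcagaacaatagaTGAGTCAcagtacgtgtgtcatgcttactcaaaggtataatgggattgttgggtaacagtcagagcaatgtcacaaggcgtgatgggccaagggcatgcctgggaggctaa
Malat1: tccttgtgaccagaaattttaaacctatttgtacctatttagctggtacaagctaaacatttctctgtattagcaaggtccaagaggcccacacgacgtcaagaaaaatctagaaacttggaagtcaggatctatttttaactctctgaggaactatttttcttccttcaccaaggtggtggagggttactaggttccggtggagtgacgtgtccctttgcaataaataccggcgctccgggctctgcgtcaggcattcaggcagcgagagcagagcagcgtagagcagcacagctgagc

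Summits of 145 intergenic regions fell into the windows of 152 genes, all of them long non-coding RNA genes, so the 11588 windows of such genes in RefSeq serve as the comparison. Searched on both strands, the PU.1 motifs AGGAAGTG or GAGGAAG were found in 31.6% of these 152 windows, against 15.8% of the 11588. TGANTCA (AP-1) was found in 17.8% against 9.31%, TTGCNNAA (C/EBP) in 16.4% against 11.9%, GAAANNGAA (the core of the interferon-stimulated response element) in 19 of the 152 against 9.32%, and the NF-kB motif in 15.1% against 7.01%. The share of windows with a match was thus higher for all 5 motifs, and the median GC content was 52.8%, against 52.7% in the windows of all genes. A match describes letters in the window and does not show that a factor bound there.

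The intergenic regions were narrower and found in fewer libraries than regions in general. Their median width was 233 bp, against 380 bp for all regions, and a region was listed in a median of 4 libraries, against 5. The nearest protein-coding gene lay at a median of 21.1 kb, with quartiles at 9.70 and 50.8 kb and a largest distance of 1326 kb. Of the 3677 regions, 821 (22.3%) were listed in no more than 2 libraries and 60 (1.63%) in all 16, against 18.5% and 4.57% of all regions. The annotated non-coding genes and pseudogenes of RefSeq overlapped 1076 of them (29.3%), of which 953 overlapped a long non-coding RNA gene. Only 948 intergenic regions (25.8%, against 39.4% of all regions) were among the best 5595 of at least 2 libraries and could be tested. A further 499 were among the best of 1 library and 2230 of none, and these weak regions enter no test below.

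The limit of 5 kb falls within a continuous range of distances. The regions nearest to it on the inside were those of Ube2f at 5006 bp, Tma16 at 5008 bp and Parp12 at 5009 bp, and those nearest on the outside were near Itgb1 at 5000 bp, Ms4a4a at 4997 bp and Mrpl14 at 4995 bp. Of these 6, only the Tma16 region was strong enough to be tested, with a change after R837 of 0.72 (adjusted p = 0.244, limma).

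The share of the best 5595 regions that was intergenic differed between times after R837. In untreated libraries it was 5.03% and 5.53% in KO and 6.35% and 5.33% in WT. At 2 h it was 4.45% and 4.55% in KO and 4.06% and 3.99% in WT, below every untreated library. At 4 h it was 8.53% and 9.40% in KO and 8.31% and 9.26% in WT, above every untreated library. At 6 h it was 7.79% and 4.64% in KO and 6.81% and 5.45% in WT, which overlapped the untreated range.

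**Figure D1:**
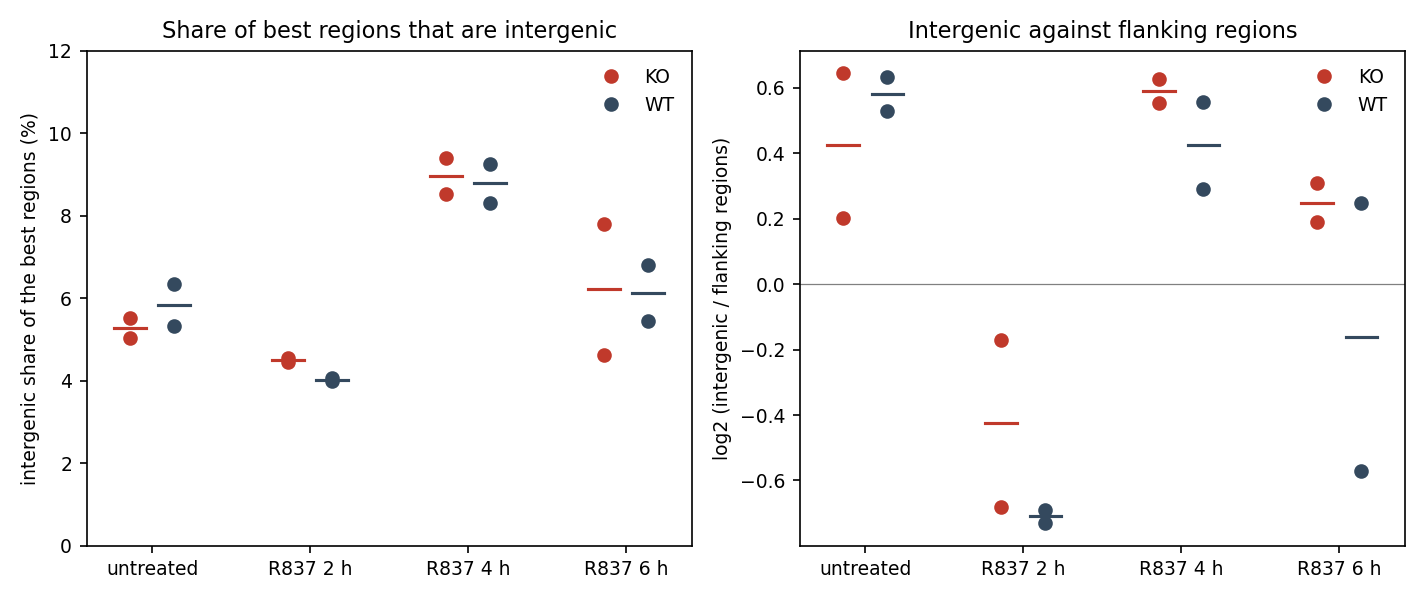
The left panel plots the intergenic share of the best 5595 regions in percent, and the right panel the log2 ratio of intergenic to flanking regions, by time after R837, with KO left of WT. Each point is 1 library and each line the mean of a group, and the 4 h libraries sit between 8.31% and 9.40%, above all others in the left panel.

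Over all times, the mean share was 6.44 ± 2.13% after R837 (SD, n = 12) and 5.56 ± 0.565% without it (SD, n = 4), a difference of 0.877 percentage points (exact permutation p = 0.446, two-sided, over 784 relabellings within genotype). The single times differed in direction. The 2 h libraries averaged 4.26 ± 0.280% (SD, n = 4), 1.30 points below the untreated ones, and the 4 h libraries 8.88 ± 0.536% (SD, n = 4), 3.32 points above them. Both differences reached an exact permutation p of 0.0556, the smallest that 36 relabellings allow. The 6 h libraries averaged 6.17 ± 1.40% (SD, n = 4), which differed from the untreated ones by 0.612 points (exact permutation p = 0.556). The share did not separate the genotypes, with 6.24 ± 2.01% in KO and 6.20 ± 1.89% in WT (SD, n = 8 each; difference 0.0444 points, exact permutation p = 0.924).

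The share was also set against that of the regions that flank genes. The log2 ratio of intergenic to flanking regions averaged −0.57 ± 0.27 at 2 h and 0.50 ± 0.21 in untreated libraries (SD, n = 4 each), a difference of −1.07 (exact permutation p = 0.0556, the smallest possible). At 4 h the ratio was 0.51 ± 0.15 (SD, n = 4), which differed from the untreated ratio by 0.0047 (exact permutation p = 0.944). Over all treated libraries the difference from the untreated ones was −0.51 (exact permutation p = 0.0906).

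After R837, 59 of the 948 tested intergenic regions rose in rank score and 120 fell at an adjusted p under 0.05 (limma). Over all 12605 regions tested, 6.96% rose and 13.6% fell, and the shares among intergenic regions, 6.22% and 12.7%, were close to these. The median change was 0.10 over the intergenic regions and 0.06 over all regions. With any 1 of the untreated libraries left out, 31 to 34 rose. Without KO replicate 1 at 4 h 93 rose, and without KO replicate 2 at 6 h 89 did. Regions at gene ends had 299 rises and 1092 falls among 5931 tested, and flanking regions 85 rises and 73 falls among 838. A region above 0 only in untreated libraries could enter the test and could only fall, and one above 0 only in treated libraries could only rise. For such regions, here and below, the change is a description and the p-value is no test. With a filter of 4 libraries in place of 2, 71 of 543 intergenic regions rose and 80 fell, so the surplus of falls was smaller.

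The counts differed between the times. At 2 h, 51 intergenic regions rose and 98 fell, against 9.57% and 10.9% of all regions. At 4 h, 154 rose and 87 fell, which are 16.2% and 9.18% of the intergenic regions tested, against 7.74% and 10.2% of all regions. Flanking regions also had more rises than falls at 4 h, 13.7% against 6.56%. At 6 h, 44 intergenic regions rose and 89 fell, against 6.70% and 11.0% of all regions. The 3 times share the untreated libraries as their reference. Without WT replicate 1, WT replicate 2 or KO replicate 2 of the untreated libraries, 29 rose at 6 h, and 71, 66 and 84 did without WT replicate 1, WT replicate 2 or KO replicate 2 at 6 h. The surplus of rises at 4 h moved together with the larger intergenic share of the 4 h lists, and its relation to the series of those lists was not tested. Scored by presence alone, 76 intergenic regions rose and 1154 fell at 2 h, and 711 rose and 653 fell at 4 h.

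**Figure D2:**
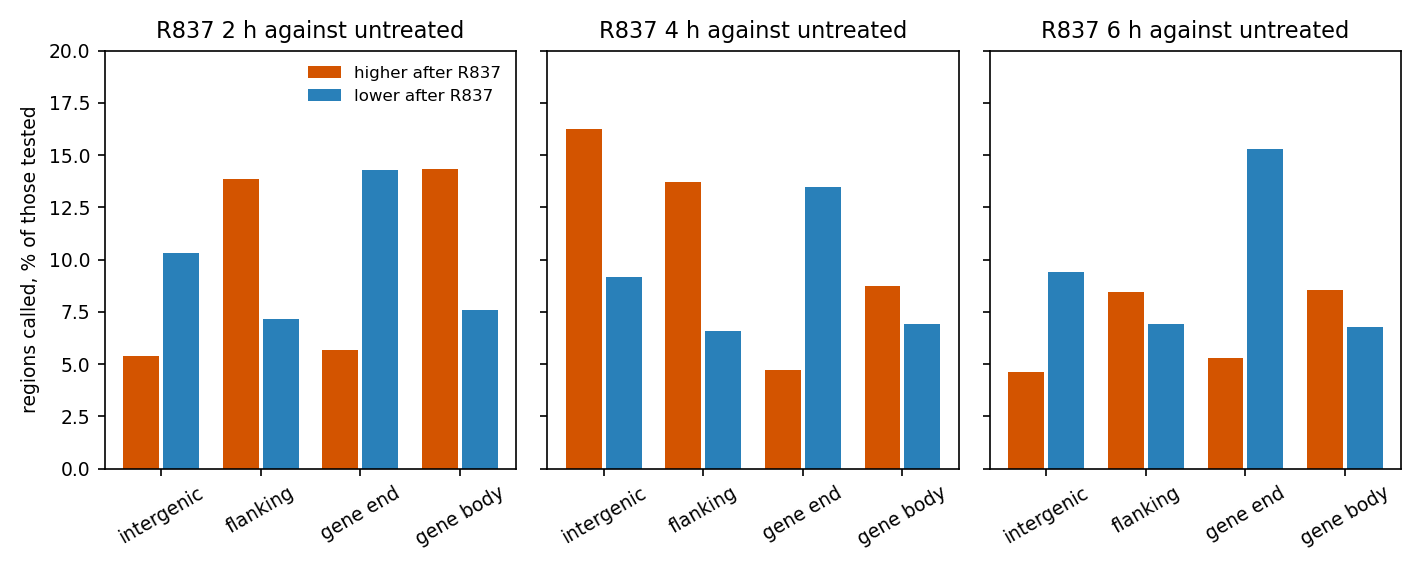
Bars show the percentage of tested regions whose rank score was higher or lower than in untreated libraries (adjusted p under 0.05), for intergenic, flanking, gene-end and gene-body regions at 2, 4 and 6 h. Intergenic regions had the tallest bar for rises at 4 h (16.2%), followed by flanking regions (13.7%), while gene ends had more falls than rises at all 3 times.

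The largest rise after R837 lay 35.3 kb from Pttg1 at chr11:43384529-43385430, 10.1 kb upstream of the Mir146 hairpin. Its rank score was 2.53, 3.90 and 5.30 as the lowest, median and highest of the 12 treated libraries and 0 in all 4 untreated ones. The groups did not overlap, and the change was 3.89 ± 0.39 (SE, adjusted p = 6.3e-05, limma). It passed the filter through treated libraries alone and could only rise. Its p-value is therefore no test, and the change is a description. The region was listed in all 16 libraries, so in the untreated cells it was present but below the best 5595 places.

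A region 23.1 kb from Nfkbia (chr12:55465777-55466831), the gene of the NF-kB inhibitor IkB-alpha, rose by 3.67 ± 0.61 (SE, adjusted p = 0.00138). It scored 0, 3.86 and 4.96 as the lowest, median and highest treated value and 0 in the 4 untreated libraries. The region passed the filter through treated libraries alone, so its rise is a description with no test. The single treated library at 0 was replicate 2 of WT at 4 h. A region of 1055 bp at this distance lies well outside the gene's own span, and the Nfkbia gene rose by 6.48 in the same libraries.

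A region in the Slfn10-ps pseudogene, 18.98 kb from Slfn8, rose by 3.51 ± 0.57 (SE, adjusted p = 0.00127), and Slfn genes are known as interferon-inducible. It scored at least 2.53 in every treated library and at most 1.93 in every untreated one. A region 10.7 kb from B4galt5, a galactosyltransferase of glycosphingolipid synthesis, rose by 3.24 ± 0.51 (SE, adjusted p = 0.00101). The region at the start of the non-coding gene Gm40645, 30.1 kb from Lilrb4a, rose by 3.19 ± 0.49 (SE, adjusted p = 0.000894), and Lilrb4a encodes an inhibitory receptor of myeloid cells. Its rank score was 1.64, 3.50 and 4.22 as the lowest, median and highest treated value, against 0 and 0.282 in untreated KO and 0 in both untreated WT libraries, and this is the region whose promoter window is printed above with its AP-1 match.

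A region in Gm36199 and Gm36486, 53.7 kb from Pim1, rose by 2.52 ± 0.39 (SE, adjusted p = 0.00088). Pim1 encodes a serine/threonine kinase induced by cytokines, and the Pim1 gene itself rose by 5.67. The neighbouring region whose summits fell into the Gm36199 window printed above rose by 1.97 ± 0.48 (SE, adjusted p = 0.0131). A region 1243 kb from Zeb2, a zinc-finger repressor that maintains macrophage identity, rose by 2.86 ± 0.42 (SE, adjusted p = 0.000709), although the Zeb2 gene moved by 0.32 (adjusted p = 0.539). Regions 15.3 kb from Fgd2 and 6.99 kb from Mapkapk2, the p38-activated kinase MK2, rose by 2.37 ± 0.54 and 1.98 ± 0.56 (SE, adjusted p = 0.00964 and 0.0279), and the Mapkapk2 call was lost without any 1 untreated library. The nearest gene is only the closest one along the chromosome and was not shown to be the target of a region.

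Among the falls, the region at one end of Neat1 (chr19:5845037-5845387), the RNA that scaffolds paraspeckles, held the top place in both untreated WT lists. It scored 6.90, 8.48 and 9.64 as the lowest, median and highest treated value, against 10.87 and 11.45 in untreated KO and 12.45 in both untreated WT libraries. No treated library reached the untreated range, and the change was −3.44 ± 0.27 (SE, adjusted p = 1.2e-05). Because it remained among the best regions everywhere, this fall is a move within the top of the list. A region at the start of Malat1, a second nuclear long non-coding RNA near Neat1, fell less, with a change of −1.24 ± 0.39 (SE, adjusted p = 0.0456), a call that was lost without any 1 of the libraries other than KO replicate 2 at 4 h and the KO libraries at 6 h.

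A region in D730003I15Rik, 41.5 kb from Atf3, changed by −2.99 ± 0.35 (SE, adjusted p = 0.00018). Its score was 0, 1.91 and 3.48 as the lowest, median and highest treated value, against 5.43 and 4.77 in untreated KO and 4.38 and 4.21 in untreated WT. Atf3 encodes a stress-induced repressor of Toll-like receptor responses, and the Atf3 gene changed by −2.21 in the same fit. The fall was deepest at 2 h, with −4.53 ± 0.43 (SE, adjusted p = 6.6e-05), where all 4 libraries scored at most 0.538.

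Regions near Zswim4 and Nanos3 lie along 1 stretch of chromosome 8 upstream of the Mir23a hairpin. The region at chr8:84201191-84201975, 6.54 kb upstream of that hairpin, had the largest fall, −4.62 ± 1.05 (SE, adjusted p = 0.00936), but it was listed in only 5 libraries. After R837 it scored 4.06 in WT replicate 2 and 1.02 in KO replicate 1 at 6 h and 0 elsewhere, against 5.83 and 7.02 in untreated KO and 0 and 7.32 in untreated WT. Without KO replicate 2 of the untreated libraries its adjusted p was 0.0508. The region beside it at chr8:84197495-84198662 was listed in all 16 libraries and changed by −2.36 ± 0.36 (SE, adjusted p = 0.000903), and the one near Nanos3 changed by −2.80 ± 0.24 (SE, adjusted p = 2e-05). Chaining joins only summits within 500 bp, so neighbouring regions need not be separate transcripts.

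The other falls named by the rule were near Ap5s1 (−2.97 ± 0.18), Tgif1 (−2.95 ± 0.54), Vps8 at the Magef1 pseudogene (−2.94 ± 0.41), Azin1 (−2.52 ± 0.27), Rbx1 (−2.50 ± 0.55), Dppa3 (−2.47 ± 0.50) and Sp1 (−2.38 ± 0.35), each with its SE. The Ap5s1 region (92 bp wide) was at 0 in all 12 treated libraries, against 1.95 and 2.06 in untreated KO and 3.74 and 4.14 in untreated WT. It entered the test only through the untreated libraries, so its fall is a description. The Rbx1 and Sp1 regions stayed listed in all 16 libraries. Rbx1 is a subunit of cullin-RING ubiquitin ligases, Tgif1 a homeodomain repressor of TGF-beta signalling, and Sp1 a general transcription factor.

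**Figure D3:**
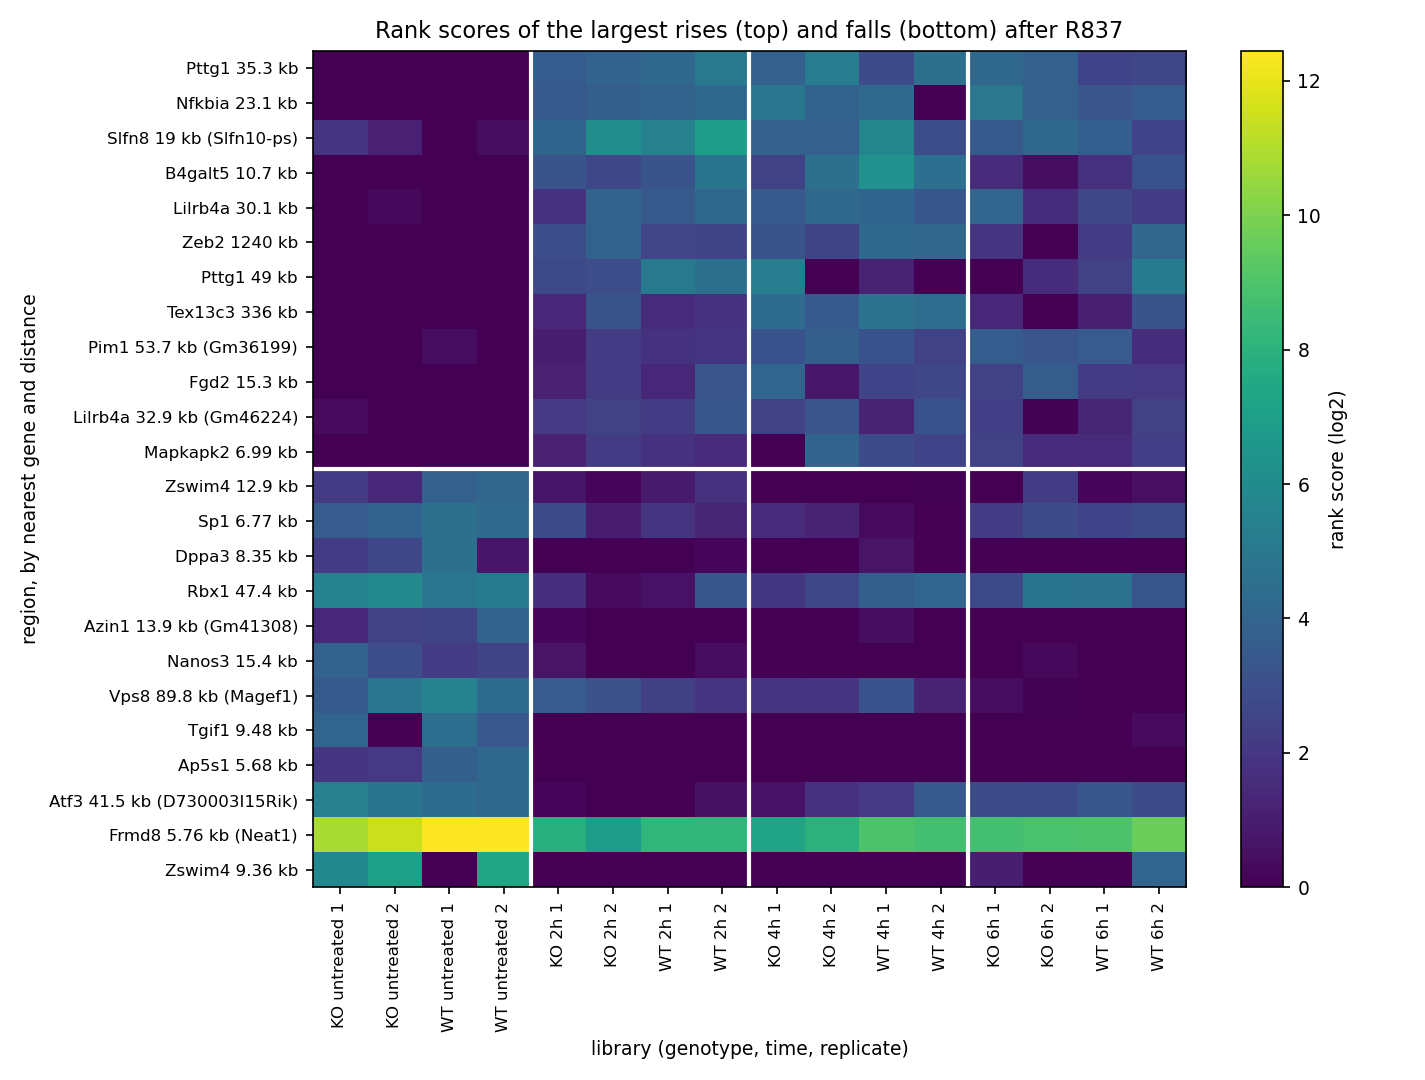
Colour gives the rank score of the 12 largest rises (top) and 12 largest falls (bottom) after R837 that had the same sign at all 3 times in both genotypes, in each of the 16 libraries ordered by time, with KO left of WT. Most of the rises score 0 in the 4 untreated columns, and the Neat1 row, at 6.90 to 12.45, has the highest scores.

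Presence alone gave few regions that separated treated from untreated lists. Only 10 intergenic regions (0.272%) were listed in all 12 treated libraries and in no untreated one, against 0.648% of all regions. They lay near Pttg1 at the Mir146 hairpin, Susd6, Ell2, Fpr1, Fgd2, Zeb2, Spred1, Tnfrsf1b, Rbpj and Cd69. In the other direction 192 (5.22%) were listed in all 4 untreated libraries and in no treated one, against 3.65% of all regions. List length differed too: the lists at 2 h and the WT lists at 4 h and 6 h were shorter than every untreated list. The 4 lists at 2 h held 289 to 522 intergenic regions, against 1473 to 2155 in the untreated and KO 4 h lists.

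Grouped by the known role of the nearest gene, most regions did not pass the test over all times, and more did at 4 h. Among all intergenic regions tested, 6.22% rose and 12.7% fell over all times and 16.2% rose and 9.18% fell at 4 h, and the small counts by role stand beside these shares without a test. Of 24 tested regions near primary NF-kB response genes, 2 rose and none fell (median change 0.18). These were the Nfkbia region above and 1 lying 12.3 kb from Nfkbiz, an atypical IkB that co-activates secondary genes, which rose by 1.39 ± 0.42 (SE, adjusted p = 0.0348). At 4 h alone 5 of the 24 rose, with Ccl3 (1.76 ± 0.53, SE), Tnip3 (1.44 ± 0.24, SE) and Tnfaip3 (0.88 ± 0.18, SE) besides these. Near secondary cytokines and effectors, 8 regions were tested and limma called none over all times, with a change of 0.21 near Il10, 0.47 near Ccl5 and 0.63 near Acod1 (adjusted p = 0.0696, 0.128 and 0.181). At 4 h these 3 rose, by 0.62 ± 0.09, 0.79 ± 0.25 and 1.50 ± 0.39 (SE). Near interferon-stimulated genes annotated as protein-coding only 1 region could be tested, with a change of 0.29. Mx2 was in this list but is annotated as a pseudogene, so the 9 tested regions of its locus counted under Tmprss2. Of these, 1 rose over all times and 2 at 4 h.

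Near feedback regulators and lysosomal genes, as over all regions, falls outnumbered rises. Of 27 tested regions near feedback regulators, 1 rose and 7 fell (median change 0.04). The rise was 19.3 kb from Socs3, a cytokine signalling inhibitor (0.94 ± 0.30, SE, adjusted p = 0.0484; 1.89 ± 0.37 at 4 h), and of the falls 1 lay near Atf3 and 6 near Zfp36l2, an mRNA-decay protein of the tristetraprolin family. The strongest Zfp36l2 region, at 57.4 kb, changed by −1.71 ± 0.24 (SE, adjusted p = 0.00052), with at most 0.245 in any treated library and at least 0.959 in every untreated one. Of 8 regions near lysosome and lipid genes, none rose and 3 fell, near Ctss (−1.04 ± 0.15), Ctsb (−0.62 ± 0.08) and Psap (−0.43 ± 0.13), each with its SE, and these encode cathepsins S and B and prosaposin.

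Regions near macrophage identity and lineage factors showed 7 rises and 2 falls among 42 tested, and 14 rises at 4 h. Their median change over all times was 0.23, against 0.10 for all intergenic regions tested and 0.06 for all regions. Among all intergenic regions tested, 6.22% rose and 12.7% fell over all times, and 16.2% rose at 4 h. Of the 7 rises, 4 came from 1 locus, 62.8 to 74.8 kb from Cebpb, the C/EBP-beta gene, with changes from 0.95 to 1.84. The one with the lowest adjusted p lay at chr2:167760180-167762041. It scored 0.211, 1.27 and 3.11 as the lowest, median and highest treated value and 0 in all untreated libraries. The change was 1.38 ± 0.29 (SE, adjusted p = 0.00616, limma). This region passed the filter through treated libraries alone, so its rise is a description with no test. The rises outside this locus lay 180.1 kb from Klf7 (1.85 ± 0.38), 57.3 kb from Klf6 (1.33 ± 0.26) and 11.7 kb from Itgam (0.87 ± 0.28), each with its SE. The falls lay near Cxcr4 (−0.27 ± 0.08) and Gpnmb (−0.47 ± 0.15). Near immediate early genes, 1 of 9 rose (Btg2, 0.43 ± 0.14) and 1 fell (Fos, −1.28 ± 0.21). Leaving out any 1 untreated library ended the calls near Nfkbiz, Socs3, Btg2 and 3 of the Cebpb regions, and the Nfkbiz and Socs3 calls also ended without WT replicate 1 or KO replicate 2 at 2 h, WT replicate 2 or KO replicate 1 at 4 h and some others, 10 and 11 libraries in all. The Psap call ended without any 1 of 10 libraries. No region near a marker of another cell type was strong enough to be tested.

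Some intergenic regions lay in rows along a chromosome, and whether a row belonged to 1 transcript was not tested. Joined across gaps of up to 12.48 kb, the 3677 regions formed 2175 loci, of which 1468 were single regions and 94 held 5 or more regions, 670 in all. The locus with most regions, 32 over 76.7 kb, lay on chromosome 6 and ran from beside the miR-29a and miR-29b-1 hairpins, whose mature sequences are printed above, into Lncpint. Of its 32 regions, 22 and 21 were listed in untreated KO and 18 and 16 in untreated WT. At 2 h it had 1 and 1 in KO and 0 and 1 in WT, and at 4 h 17 and 20 in KO and 14 and 16 in WT. At 6 h it had 19 and 26 in KO and 22 and 17 in WT. The fewest were thus listed at 2 h.

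Other loci had their own courses. The Mx2 locus, which RefSeq annotates as a transcribed pseudogene and whose gene family is known as interferon-induced, held 14 regions. At most 1 of them was listed in an untreated library and none at 2 h, against 8 to 13 at 4 h and 7 to 12 at 6 h. The Samd9l locus, next to an interferon-inducible antiviral gene, had 11 regions, none listed in untreated libraries and at most 1 at 2 h, against 6 to 11 at 4 h and 1 to 5 at 6 h. Both loci were thus listed late.

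The D730003I15Rik locus beside Atf3 and Nenf had 11 to 14 of 14 regions listed in untreated libraries, at most 1 at 2 h, 2 to 7 at 4 h and 1 to 6 at 6 h. The Zfp36l2 locus had 9 to 13 of 14 in untreated libraries, at most 1 at 2 h, 1 or 2 at 4 h and 0 to 6 at 6 h. The locus between Tomm20 and Gm31718 had 9 or 10 of 11 in every untreated library, none at 2 h and 0 to 5 later. In contrast, the Zfp263 locus, with 13 regions, was listed in no untreated library, and with 4 or 5 regions in each 2 h library.

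**Figure D4:**
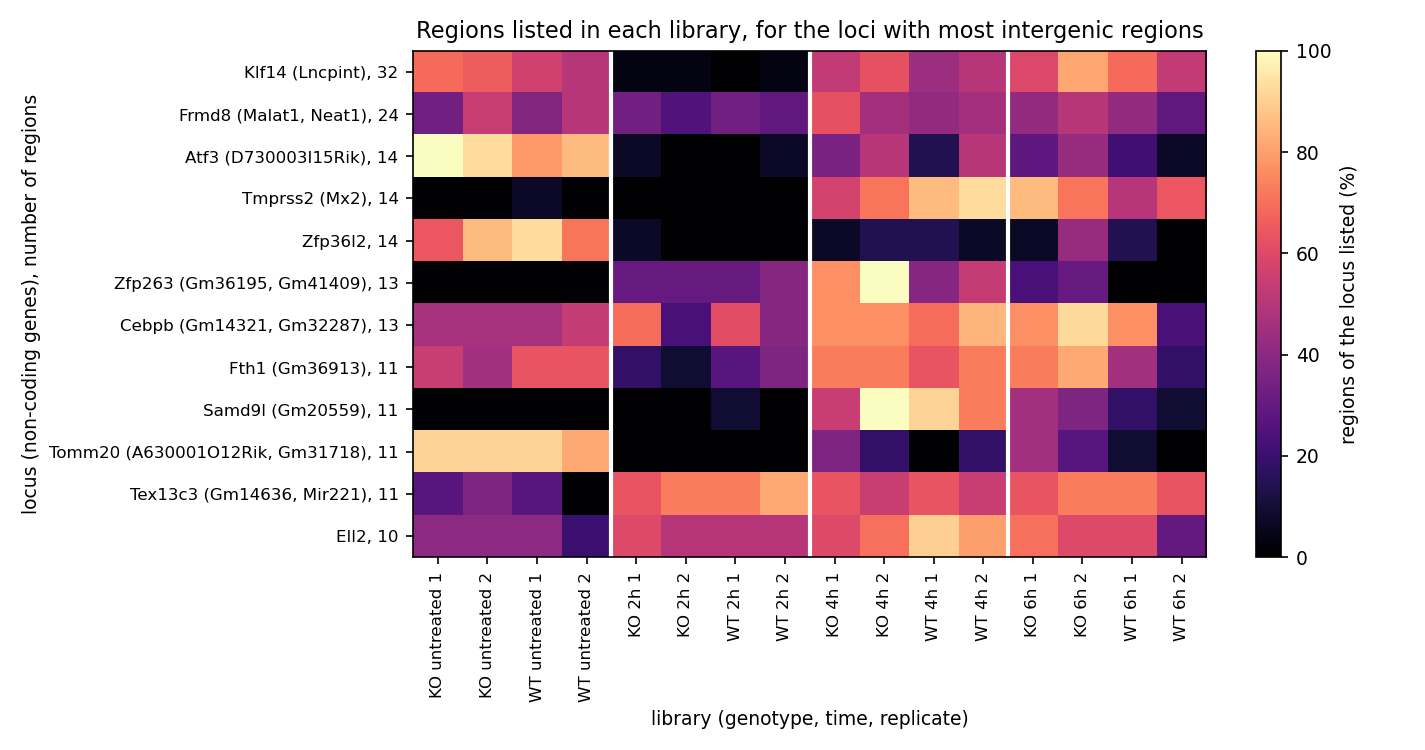
Colour gives the percentage of a locus's intergenic regions that were listed in each library, for the 12 loci with most regions, ordered by time with KO left of WT. Mx2 and Samd9l are near 0% in untreated and 2 h libraries, the Lncpint row is near 0% at 2 h, and the Zfp36l2 and Tomm20 rows are highest without R837.

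The presence of a region depends on the length of a list as well as on the region. The 2 h lists were short, with 9402 to 13825 summits, against 20607 to 24720 in the untreated lists. The part of list length in the 2 h gaps was not tested. Replicate 2 of WT at 6 h was the shortest list with 8394 summits.

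MicroRNA hairpins lay within 5 kb of 54 intergenic regions, a set singled out after values were seen. Of the 34 that could be tested, 5 rose and 4 fell after R837, beside 6.96% and 13.6% of all regions. These counts include regions above 0 only in treated or only in untreated libraries, which could move in only 1 direction. Around Mir146, the region that covers the hairpin rose by 1.12 ± 0.35 (SE, adjusted p = 0.044) and the one 2.34 kb downstream by 2.59 ± 0.80 (SE, adjusted p = 0.0401). Neither was above 0 in any untreated library, so both passed the filter through treated libraries alone and their rises are descriptions with no test. The second call was lost in 14 of 22 alternative settings, among them leaving out any 1 untreated or 2 h library. Beside Mir221 and Mir222, which share their seed, regions on either side rose by 2.55 ± 0.45 and 1.97 ± 0.38 (SE, adjusted p = 0.0022 and 0.0033). The first of these scored 3.51 to 4.64 in the 4 h libraries, 1.40 to 3.23 at 2 h and 0 to 3.18 at 6 h.

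The region over Mirlet7i rose by 1.16 ± 0.35 (SE, adjusted p = 0.0366), and it scored 1.32 to 3.75 at 2 h and 0.418 to 1.01 at 6 h. A region 1754 bp from Mir155 was at 3.17 and 3.05 in KO at 2 h and at 0 in WT at 2 h, and its change after R837 over all libraries was 0.70 (adjusted p = 0.0617). Regions near Mir3089 changed by −1.85 and −0.81, and 1 near Mir760 by −0.94. All of these were at 0 in every treated library and passed the filter through untreated libraries alone, so their falls are descriptions. A region near Mir223, a microRNA abundant in myeloid cells, changed by only −0.27 (adjusted p = 0.0064).

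Comparing 6 h with 2 h, 28 intergenic regions rose and 31 fell, against 3.63% and 5.84% of all regions. The later rises included the D730003I15Rik region near Atf3 (2.81 ± 0.43, SE, adjusted p = 0.0026), the Mx2 region (2.75 ± 0.53, SE, adjusted p = 0.0078) and both tested Lncpint regions named by the rule (2.19 ± 0.51 and 2.02 ± 0.46, SE), though 1 of these was not called without WT replicate 2 and the other without KO replicate 2 at 6 h. The Mx2 region was at 0 in all untreated and 2 h libraries, at 1.99 and 3.38 in KO and 6.52 and 5.01 in WT at 4 h, and at 2.99 and 0.832 in KO and 3.21 and 3.96 in WT at 6 h. A region at Lyn, a Src-family kinase of myeloid receptors, also rose (1.44 ± 0.27, SE, adjusted p = 0.0072). This rise was in WT alone, since the KO libraries were at 0 at both times.

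The regions lower at 6 h than at 2 h were led by 1 near Nsd1. This region, 19.8 kb from the histone methyltransferase gene, scored 0.704 and 2.01 in KO and 0 and 0 in WT at 6 h, against 4.98 and 4.36 in KO and 3.66 and 5.53 in WT at 2 h (−3.95 ± 0.45, SE, adjusted p = 0.00074). The Gm40085 region near Fcrl5 changed by −3.57 ± 0.38 (SE, adjusted p = 0.00045), the Sertad2 region by −2.42 ± 0.45 (adjusted p = 0.0063) and the Jdp2 region by −2.37 ± 0.37 (adjusted p = 0.0029). Jdp2 encodes an AP-1 repressor. The Mir155 region changed by −1.55 ± 0.30 (SE, adjusted p = 0.0074) and the Mirlet7i region by −1.77 ± 0.43 (SE, adjusted p = 0.023). Only KO could show the Mir155 fall, since WT was at 0 there at 2 h. The count of later rises ranged from 16 to 59 when single libraries were left out. It was 16, 17 and 17 without WT replicate 1, WT replicate 2 or KO replicate 2 at 2 h, 48 without WT replicate 1, 54 without WT replicate 2, 43 without KO replicate 1 and 59 without KO replicate 2 at 6 h. The fit of these 2 times alone gave 5 rises and 9 falls, and scored by presence alone, 344 rose and 21 fell.

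KO and WT differed at few intergenic regions after R837. Of the 948 tested, 9 were higher and 10 lower in KO, against 0.611% and 1.02% of all regions. No region was listed in all 8 KO and no WT library, or the reverse. Among the 19 called, only 2 of the higher and 5 of the lower ones differed by more than 1 in rank score. With a filter of 4 libraries in place of 2, 3 were higher and 7 lower. Chained at 250 bp, 1 was higher and 4 lower, and at 1000 bp 5 and 2. Which direction held more calls also turned with the single library left out. Scored by presence alone, 552 were higher and 33 lower in KO, and the KO lists at 4 h and 6 h were longer than the WT lists.

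The 2 largest rises in KO lay in the same non-coding gene, 4930469K13Rik, between Kcnip1 and Lcp2. The region 18.2 kb from Kcnip1 scored 1.26 and 0.357 in KO and 0 and 0 in WT at 2 h, 3.25 and 3.64 in KO and 1.06 and 1.10 in WT at 4 h, and 2.90 and 2.63 in KO and 0.444 and 1.30 in WT at 6 h. KO was above WT at each time, and the difference was 1.69 ± 0.25 (SE, adjusted p = 0.014). The region 6.49 kb from Lcp2, the gene of the adaptor SLP-76, was higher by 1.47 ± 0.25 (SE, adjusted p = 0.0215). It was at 0 in every untreated library of both genotypes.

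A region 62.6 kb from Tnfaip3, the gene of the NF-kB brake A20, was at 1.81 and 1.69 in KO at 4 h and at 0 in WT at 4 h. The difference over the treated libraries was 0.70 ± 0.14 (SE, adjusted p = 0.038), but the region was above 0 only in treated KO libraries. It passed the filter through these alone, so its p-value is no test and the difference is a description. The call was lost in 8 of 22 alternative settings, among them leaving out an untreated KO library, WT replicate 1 at 4 h or WT replicate 2 at 6 h. Differences of 0.21 to 0.48 were called near Adgrl2, Tmc1, Rcl1, Creb1, Pfpl and Rasgef1b.

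The 10 regions lower in KO had differences of up to −1.61. Near Rbpj, the DNA-binding partner of Notch, the scores were 0 and 0.0815 in KO and 0.444 and 0.749 in WT at 2 h, 0 and 0 in KO and 2.07 and 1.20 in WT at 4 h, and 0 and 0.0966 in KO and 2.44 and 2.96 in WT at 6 h. All KO values lay below all WT values, and the difference was −1.61 ± 0.21 (SE, adjusted p = 0.00786). Near Ell2, an elongation factor, they were 3.02 and 4.16 in KO and 3.42 and 3.82 in WT at 2 h, 0 and 0 in KO and 1.76 and 1.91 in WT at 4 h, and 1.28 and 0 in KO and 3.88 and 3.23 in WT at 6 h. The Ell2 groups overlapped at 2 h and were apart at 4 h and 6 h, with a difference of −1.59 ± 0.31 (SE, adjusted p = 0.0335), a call lost without either untreated KO or either KO 4 h library.

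The Lyn region scored 0 in all libraries at 2 h, 1.35 and 0.988 in KO and 2.80 and 2.24 in WT at 4 h, and 0 and 0 in KO and 2.43 and 3.32 in WT at 6 h (−1.41 ± 0.22, SE, adjusted p = 0.0177). The region near Cd72, an inhibitory C-type lectin, differed by −1.36 ± 0.22 (SE, adjusted p = 0.0193), 2 regions of Gm8995 by −1.11 and −0.94, and a region 2790 bp from the Mir29a hairpin by −0.41 ± 0.08 (SE, adjusted p = 0.0278). A region in the body of Neat1 differed by −0.98 ± 0.21 (SE, adjusted p = 0.042), with 0 in all treated KO libraries and 0.259 to 1.82 in the treated WT libraries. The count of called regions ranged from 16 to 53 when single libraries were left out. It was 42 without replicate 2 of KO at 6 h, 40 without KO 6 h replicate 1, 53 without WT 6 h replicate 1, 42 and 43 without WT replicate 1 and replicate 2 at 4 h, and 35 and 32 without KO replicate 1 and replicate 2 at 4 h.

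In untreated cells, 7 intergenic regions were higher and 15 lower in KO, against 0.635% and 0.952% of all regions. The lower ones included those near Cd300a (−2.17 ± 0.32), Ap5s1 (−1.94 ± 0.31), Ctss (−1.44 ± 0.26) and Gng2 (−2.26 ± 0.46), each with its SE. The Ctss call was lost without KO replicate 2 of the untreated libraries. The Gng2 difference was −1.31 to −3.22 without single libraries, and omitting any 1 of 14 libraries, the untreated WT ones aside, ended its call. The Cd300a region, near a receptor of phagocytes that binds phospholipids, scored 0.527 and 0 in KO and 2.75 and 2.12 in WT. The higher ones were all under 1, up to 0.97 ± 0.21 near Gpr157 (SE, adjusted p = 0.0468), a call that was lost in 19 of 23 alternative settings, 13 of them without a single library. Fitting these 4 libraries alone, limma called none, with 17 at an unadjusted p under 0.05. Among regions in the best 5595 of at least 4 libraries 0 were higher and 2 lower, and ranking by summits gave 12 higher and 15 lower. The total of 22 was 36, 49 and 36 without WT replicate 1, WT replicate 2 or KO replicate 1 of the untreated libraries.

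The test of a different response to R837 in KO and WT called 14 intergenic regions, with 11 more positive and 3 more negative in KO, against 0.587% and 0.405% of all regions. With a filter of 4 libraries in place of 2, limma called none of 543, with 48 at an unadjusted p under 0.05. All 14 were listed in 3 to 9 libraries and scored at most 0.473 in any treated library, so these differences were close to the untreated ones with the sign turned. Regions that enter the test only through the untreated libraries of the genotype where they are high had to differ, so the count of 14 is a description. The largest were near Cd300a (2.26 ± 0.37) and Ap5s1 (1.94 ± 0.36), each with its SE. The total of 14 was 32, 42 and 30 without WT replicate 1, WT replicate 2 or KO replicate 1 of the untreated libraries, 9 without KO replicate 2 at 4 h and 8 without WT replicate 2 at 6 h. Ranking by summits gave 7 more positive and 8 more negative. The only intergenic region within 100 kb of N4bp1 lay 6.37 kb away at chr8:86891430-86891904. It was listed in 6 libraries, never above 0.313, with a change of 0.03 after R837 (adjusted p = 0.597).

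The regions that ranked high in every library mostly overlapped non-coding RNA genes. Besides Neat1 and Malat1, whose lowest rank scores over the 16 libraries were 6.90 and 4.72, they overlapped Rnu5g with Gm40527 near Parp16, 1700012D14Rik near Eif4g2, B930059L03Rik near Ppp2r5c, Gm25099 near Kif2c, Gm52681 near Cela3a, Gm11476 near Ube2v1 and Snhg5 near Zfp949, a host of small nucleolar RNAs. The tenth, 51.0 kb from Lpp, overlapped no annotated non-coding gene. Apart from Neat1 and Malat1, none of these passed the test over all times after R837, with changes from −1.004 near Zfp949 to 1.49 near Parp16 (adjusted p = 0.0785).

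Rises varied little with distance from a gene up to 100 kb, and falls varied more. Of tested regions at 5 to 10 kb, 5.23% rose and 10.8% fell, and at 50 to 100 kb 6.84% and 13.7% did. Between these, 6.67% rose and 16% fell at 10 to 20 kb, and 6.61% and 15% at 20 to 50 kb. Beyond 100 kb, 6.52% of 92 regions rose and 3.26% fell. Regions in a non-coding gene or pseudogene had 7.55% rises and 11.6% falls, and the others 5.56% and 13.2%. The share of regions in non-coding genes grew with distance, with 23% at 5 to 10 kb and 42.4% beyond 100 kb.

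The nearest gene of a region was scored in the same libraries. A gene was scored by the best region within its span and 1 kb around it, and 7292 genes were tested, of which 6.72% rose and 23% fell after R837. Of the 59 regions that rose, 47 had a tested nearest gene, and they shared 38 genes. The gene rose beside 24 of these regions and fell beside 1, and the median gene change over the 47 regions was 1.95. Of the 120 regions that fell, 85 had a tested gene, and they shared 66 genes. The gene rose beside none of these, fell beside 41 and was not called beside the others, and the median was −0.77. Of 543 regions that were not called, 173 had a gene that rose and 73 one that fell.

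**Figure D5:**
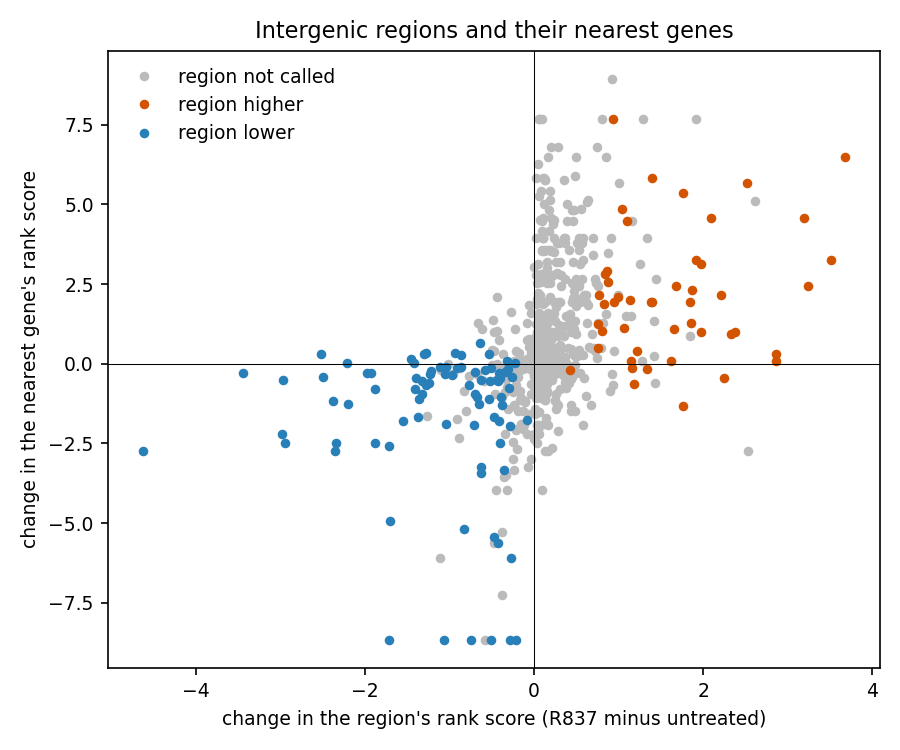
Each point is an intergenic region with a tested nearest gene, with the change in rank score of the region on the x axis and of the gene on the y axis (R837 minus untreated), coloured by the region's call. The nearest gene rose beside 0 of 85 regions called lower and beside 24 of 47 called higher.

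Across 675 regions and 396 genes, Pearson's r between the change of the region and of the gene was 0.423 and Spearman's rho 0.546. This describes regions that share libraries, ranks and often a gene, and regions are not independent replicates. Some pairs went apart. The Nsd1 region rose by 2.25 while its gene moved by −0.46 (adjusted p = 0.138), and the Neat1 region fell while Frmd8, the nearest protein-coding gene, moved by −0.29 (adjusted p = 0.734). At Zfp36l2 the gene changed by −8.65 and 5 of the 6 tested regions of its locus fell with it.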

How the data were processed

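RNA polymerase II summit lists of 16 libraries were used, 1 list each. Reads of 75 nt were aligned with GSNAP to GRCm38 and peaks called with MACS2, per the submitters' processing notes. The values deposited by the authors are the 1 bp position of each summit and a score, a −log10 of a p- or q-value (the files do not say which). No list holds read counts, so depth and counting error are unknown, and the score of a summit also depends on the depth of its library.

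Summits were pooled, chained at 500 bp or less, classed by distance to 21900 protein-coding gene spans of RefSeq (GRCm38.p6) and ranked once per region in each library. Rank scores of the 12605 regions among the best 5595 of at least 2 libraries were fitted with limma 3.58.1 (R 4.3.3), with 1 mean per group, all 16 libraries, a variance trend and Benjamini-Hochberg adjustment over all 12605, and a threshold of 0.05. Genes were fitted alike over 7292 genes. Shares were compared by exact permutation of libraries (two-sided, all relabellings listed in Python). Other steps used Python 3.11.15, numpy 2.4.6, pandas 2.3.3, scipy 1.17.1 and matplotlib 3.10.9. The fit was also run on simulated ranks, and no result of that run is given or used here.

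Regions were named by their nearest protein-coding gene under 1 rule. It took the 12 largest rises and 12 largest falls after R837 with 1 sign at every time in both genotypes, the 5 largest in each direction of every other contrast, the 10 highest in every library, called regions near listed genes, the region near N4bp1, the 10 loci with most regions and the 3 regions on either side of the distance limit. Regions at microRNAs and promoter windows, and some in loci, were added after their values were seen. The rule for intergenic regions and all gene lists were chosen with earlier results of these data known. Alternatives were other chaining and distance limits, filters, rankings, fits and leaving out each library. Sequence under the regions themselves was not analysed here.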

Additional observations from a re-analysis of the deposited data

Results flagged for a closer look

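At 8 intergenic regions named by the rule, the test of a different response to R837 in KO and WT passed the threshold (limma, interaction of genotype and treatment). With a filter of 4 libraries in place of 2, no intergenic region passed it. The difference, response in KO minus response in WT, was 1.24 near Glrp1 (adjusted p = 0.04997, lost in 17 of 21 alternative settings, 13 of them without a single library), 2.26 near Cd300a (adjusted p = 0.016), 1.01 near Dlgap1, 1.94 near Ap5s1 (adjusted p = 0.0297) and 1.09 near Ddx6 (adjusted p = 0.0297). It was −0.58 near Zfp36l2, −0.81 near Ptp4a2 and −0.75 near Lmntd1 (adjusted p = 0.0184).

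The 5 positive differences lay at regions that were lower in untreated KO. The Glrp1 region scored 0.325 and 0 in untreated KO and 1.76 and 1.04 in untreated WT. The Dlgap1 region was at 0 in both untreated KO libraries and at 1.01 and 1.02 in untreated WT. The Ddx6 region scored 0 and 0.445 in untreated KO, against 1.31 in both untreated WT libraries. The 3 negative ones lay at regions that were higher in untreated KO. The Ptp4a2 region scored 0.777 and 0.845 in KO and 0 in WT, the Zfp36l2 region 0.595 and 0.565 in KO and 0 in WT, and the Lmntd1 region 0.629 and 0.944 in KO and 0.0682 and 0 in WT. The Dlgap1, Ptp4a2 and Zfp36l2 regions were above 0 in 2 libraries of 1 group alone and passed the filter only through that group, so their differences are a description with no test.

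In treated libraries all 8 were at 0, except the Cd300a region with 0.0604 and 0.473 in KO at 4 h. A score of 0 means a place below the best 5595 regions, so a further fall could not be seen.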

How the results depend on the processing

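Among the alternatives, 2343 values of named regions kept their direction and side of the threshold, 401 passed no longer, 27 newly passed and 8 reversed. All 8 reversed when regions were scored as present or absent, near Btg2 (−0.17), Klf6 (−0.083), Cebpb (−0.083 at 2 regions), Zfp36l2, Ptp4a2, Lmntd1 and Gm1966 (0.17 each). The causes of the moves below were not tested. The R837 share difference was −0.214 points by best summits, −1.60 with lists as deposited and −1.30 at 2 h alone, and 0.064 chained at 250 bp, 1.70 at 1000 bp, 0.542 beyond 10 kb and 0.434 beyond 20 kb, against 0.877. The KO share difference was −0.075 beyond 20 kb, −0.0593 with 4 libraries, −0.177 chained at 1000 bp and −0.407 to 0.482 without single libraries. The ratio of intergenic to flanking regions differed by −0.643 when chained at 250 bp (exact permutation p = 0.0408) and by −0.272 at 1000 bp (exact permutation p = 0.403).

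Counts of called regions moved too. R837 against untreated gave 82 beyond 20 kb, 118 without non-coding genes, 309 by summit ranks, 1542 by presence and 101 chained at 1000 bp. In the same order 2 h gave 64, 98, 243, 1230 and 89, with 84 from the compared groups alone (42 rises, 42 falls). At 4 h the counts were 114 beyond 20 kb, 391 by summit ranks, 1364 by presence, 132 chained at 1000 bp, 143 from compared groups and 151 unfiltered. At 6 h they were 62 beyond 20 kb, 81 without non-coding genes, 227 by summit ranks, 1047 by presence, 83 chained at 1000 bp, 64 from compared groups (29 rises, 35 falls) and 80 unfiltered. For 6 h against 2 h they were 33 beyond 10 kb, 19 beyond 20 kb, 30 without non-coding genes, 365 by presence, 14 from compared groups and 34 unfiltered.

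KO against WT after R837 gave 10 beyond 20 kb, 11 without non-coding genes, 29 with no trend, 10 with a filter of 4, 33 by summit ranks, 585 by presence, 5 chained at 250 bp, 7 at 1000 bp and 16 to 53 without single libraries. In untreated cells it gave 13 beyond 20 kb, 83 by presence, 11 chained at 1000 bp, 2 with a filter of 4, 0 from the compared groups (limma, 17 at an unadjusted p under 0.05) and 15 to 49 without single libraries. The response that differed between genotypes gave 9 beyond 20 kb, 425 by presence (386 more positive, 39 more negative), 5 chained at 1000 bp, 0 with a filter of 4 and 8 to 42 without single libraries. Replicate numbers were not taken to pair the samples: of 28 correlations between the deviations of same-numbered libraries, from −0.123 to 0.173, only 1 was over 0.1. With the replicate block, 8 regions differed between KO and WT after R837 and 9 in their response, and no other count moved by over 1.5 times. Read depth, which the lists do not give, limits every rank.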
